A study of Drosophila melanogaster with 28 samples.

Results

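The 9 genes described here encode channels of the fly nervous system, channel subunits and a channel partner. They are para, Sh, eag, Hk, SK, Ca-alpha1T, nAChRalpha3, shakB and Slob, of which 8 lie on the X chromosome and Slob lies on 2L. They were chosen by measured values, since each was listed for holding binding sites of MSL2 or CLAMP in these same peak lists. That a gene holds sites, and how many, is therefore a description and is not tested. Peaks of all 9 lists were joined into a site where they overlapped by at least 1 bp, and a site was assigned to a gene whose body it overlapped. The genes held 46 of the 1098 sites (4.19%), made of 102 of the 2013 peaks.

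Voltage-gated sodium and potassium channels shape the action potential, calcium channels set excitability and transmitter release, nicotinic receptors carry fast excitation in the insect brain, and innexins form electrical synapses. Sh, eag and Hk were found through mutants whose legs shake under ether, and para through mutants paralysed by heat. MSL2 is the subunit through which the male dosage compensation complex of Drosophila reads DNA. CLAMP is a zinc finger protein of GA-rich DNA that is known to help the complex reach the X chromosome.

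The DNA came from BG-3 cells, a larval central nervous system line, and was purified before it was packed into chromatin outside the cell. The sites thus show where added protein lay on reconstituted chromatin, and nothing in the lists measures expression of the channels or checks the identity of the cells. The labels name 28 libraries in 12 groups. The CLAMP antibody was used on chromatin with CLAMP mutant and MSL2, CLAMP and MSL2, CLAMP mutant alone and CLAMP alone (2 libraries each). The MSL2 antibody was used with MSL2 and CLAMP mutant, MSL2 and CLAMP, and MSL2 alone (3 each), and the FLAG antibody with CLAMP mutant and with CLAMP (2 each). The remaining 7 libraries were negative controls, 1 group per antibody, for which the labels list no added factor. The labels do not say what the CLAMP mutation is or which protein end carries the FLAG tag. All groups share the same genomic DNA.

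Each list was called by the authors on merged libraries, so a site is either called or not called, with no replicate error and no test between conditions. Total tags per list ran between 3875205 and 26822838. Peaks held between 0.0328% and 0.0658% of the tags in the CLAMP antibody lists of CLAMP mutant, CLAMP mutant with MSL2, and CLAMP. The other 6 lists held between 0.183% and 2.50%. All lists of an antibody share 1 negative control, and what a shared control adds to their overlap was not tested. A site not called in a list failed at least 1 filter there, which is no measured loss of binding. No strand, exon or sequence was used here, so positions are given as kb from the lower-coordinate end of the gene body (dm6) to the centre of the site.

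Sites lay throughout the gene bodies, and the share at their ends was close to that of the length there. Of the 46, 2 (4.35%) lay within 2 kb of either end, where 4.83% of the combined gene length lies. These were an Hk site beginning 120 bp inside the gene and an SK site beginning 1343 bp inside. In the 128 other X genes at least as long as Hk, the shortest of the 9 at 30139 bp, 7.18% of 181 sites lay within 2 kb of an end of such a gene. These genes overlap in part, and 5.48% of their summed length lies that close to an end. Counted per gene as that length is, 6.25% of 208 pairs of a site and a gene lay there. Outside the gene bodies the nearest further site was 3996 bp below shakB, followed by 8322 bp below Hk. For para the nearest outside sites were 242405 bp below and 24880 bp above the gene.

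**Figure D1:**
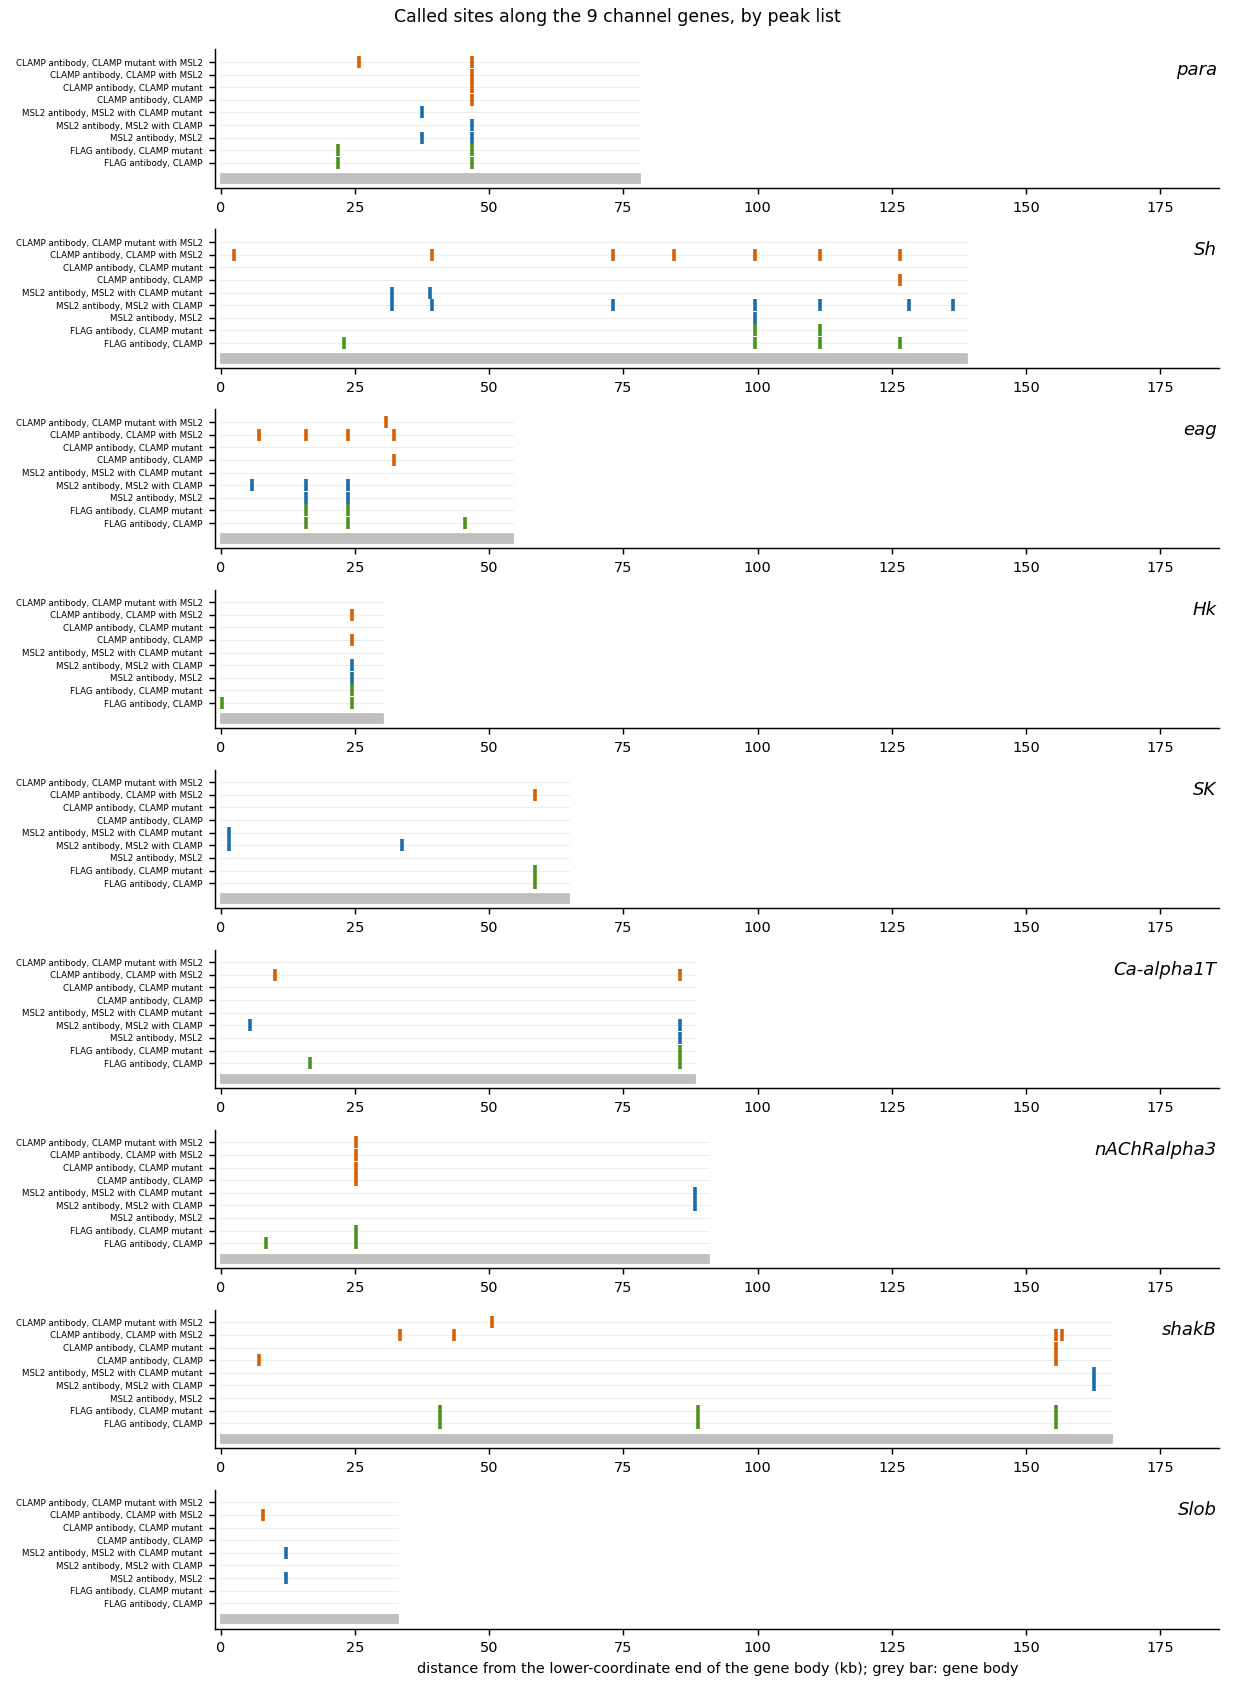
Called sites along the 9 genes. The horizontal axis is the distance from the lower-coordinate end of the gene body in kb, each row is 1 of the 9 peak lists, ticks are called sites coloured by antibody (orange CLAMP, blue MSL2, green FLAG), and the grey bar is the gene body. The 8-list column of para stands at 46.7 kb, and Sh has 12 sites spread over 139 kb.

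Among the sodium and potassium channel genes, para had 4 sites in 78.1 kb (gene X, 16455027 to 16533096). Its main site, at 46.7 kb (X, 16501627 to 16501850), was called in 8 lists. The only list without it was MSL2 with CLAMP mutant. A site at 37.5 kb (X, 16492364 to 16492624) was called with MSL2 and CLAMP mutant and with MSL2 alone, and in no other list. Within the MSL2 antibody it thus differed from the main site in which mixture was called, and MSL2 alone called both. A site at 21.7 kb (X, 16476678 to 16476851) was called in the FLAG lists of CLAMP mutant and CLAMP only. The last, at 25.7 kb (X, 16480612 to 16480762), was called only for CLAMP mutant with MSL2 by the CLAMP antibody. para thus held 1 site called by all 3 antibodies, 1 called by the MSL2 antibody only, and 2 called by the FLAG or the CLAMP antibody only.

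Sh, which encodes the Shaker A-type potassium channel, had 12 sites in 139 kb (X, 17924307 to 18063247). Of these, 6 were called in 1 list each. The site at 99.6 kb (X, 18023722 to 18024029), which also overlaps the gene CG6867, was called in 5 lists: CLAMP with MSL2, MSL2 with CLAMP, MSL2 alone and both FLAG lists. The CLAMP with MSL2 peak there ended 2 bp before the FLAG CLAMP peak and 6 bp before the FLAG CLAMP mutant peak, and the MSL2 antibody peaks join them into 1 site. At 111.6 kb (X, 18035850 to 18036061) the same lists apart from MSL2 alone called a site. Next to it, at 126.6 kb (X, 18050827 to 18051029), the callers were CLAMP with MSL2, CLAMP alone and FLAG CLAMP. These 3 sites lay towards the upper end of the gene, at 71.7%, 80.4% and 91.1% of its length. Sites at 39.3 kb (X, 17963471 to 17963654) and 73.1 kb (X, 17997305 to 17997455) were called by both antibodies in the mixture of MSL2 and CLAMP and nowhere else. At 73.1 kb the peaks of both antibodies had identical borders.

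The lower part of Sh held a close pair of sites that differed by the CLAMP protein added. A peak of MSL2 with CLAMP mutant at 38.9 kb (X, 17963132 to 17963282) ended 188 bp before the site at 39.3 kb, where MSL2 with CLAMP was called. The site at 32.0 kb (X, 17956200 to 17956359) was called for MSL2 in both mixtures, with peak starts 9 bp apart. Single-list sites lay at 2.51 kb and 84.3 kb (CLAMP with MSL2), 23.0 kb (FLAG CLAMP), and 128.1 kb and 136.4 kb (MSL2 with CLAMP).

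eag, the ether-a-go-go potassium channel gene, had 7 sites in 54.5 kb (X, 14955477 to 15009989), or 12.8 sites per 100 kb. Sites at 15.8 kb (X, 14971178 to 14971375) and 23.6 kb (X, 14978961 to 14979236) were called in the same 5 lists as the Sh site at 99.6 kb. At 32.3 kb (X, 14987699 to 14987863) CLAMP with MSL2 and CLAMP alone gave a site that no FLAG list called. It lay 1298 bp from a site at 30.9 kb called only for CLAMP mutant with MSL2. The others were called once each, at 5.81 kb (MSL2 with CLAMP), 7.11 kb (CLAMP with MSL2) and 45.5 kb (FLAG CLAMP).

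Hk encodes Hyperkinetic, the beta subunit that associates with Shaker, and is the shortest of the 9 genes (X, 10233347 to 10263485). Its site at 24.4 kb (X, 10257615 to 10257784), which also overlaps the antisense gene asRNA:CR43959, was called in 6 lists. These were CLAMP with MSL2, CLAMP alone, MSL2 with CLAMP, MSL2 alone and both FLAG lists. The peak starts there lay within 19 bp of each other. The other site, at 0.195 kb (X, 10233467 to 10233617), was called in the FLAG CLAMP list only.

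SK, the small-conductance calcium-activated potassium channel gene, had 3 sites in 64.9 kb (X, 5340236 to 5405138), none of them called with MSL2 alone. At 1.47 kb (X, 5341579 to 5341824) MSL2 was called in the mixtures with CLAMP mutant and with CLAMP. At 33.8 kb (X, 5373950 to 5374100) it was called with CLAMP only. The site at 58.5 kb (X, 5398621 to 5398841) belonged to CLAMP with MSL2 and both FLAG lists, so no site in SK was called by both the MSL2 and the CLAMP antibody.

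Slob encodes a protein named for binding Slowpoke, a calcium-activated potassium channel, and is the only one of the 9 genes on an autosome (2L, 7642005 to 7675078). Its site at 12.1 kb (2L, 7654030 to 7654239) repeated the pattern of the para site at 37.5 kb, being called with MSL2 and CLAMP mutant and with MSL2 alone and not in the mixture with CLAMP. The second site, at 7.79 kb (2L, 7649715 to 7649865), was called for CLAMP with MSL2 only.

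Ca-alpha1T, the gene of a T-type calcium channel, which opens at low voltage, had 4 sites in 88.4 kb (X, 6104085 to 6192483). Of these, 3 were single-list sites in the lower part of the gene, each from a different antibody: 5.38 kb (MSL2 with CLAMP), 10.1 kb (CLAMP with MSL2) and 16.6 kb (FLAG CLAMP). After 68.7 kb without a site came the site at 85.6 kb (X, 6189523 to 6189884), called in the 5 lists that also called eag at 15.8 kb. It was 362 bp wide. Its peaks were staggered: the CLAMP with MSL2 peak ended 29 bp before the MSL2 with CLAMP peak and 60 bp before the MSL2-alone peak, and the FLAG peaks lay between them. With MSL2 and CLAMP both present, the peaks of the CLAMP and MSL2 antibodies are joined here only through the FLAG peaks that bridge them.

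nAChRalpha3, a nicotinic receptor subunit gene, had 3 sites in 91.0 kb (X, 8276200 to 8367169), and those of MSL2 and of CLAMP were apart. The site at 25.2 kb (X, 8301326 to 8301507) was called in all 4 CLAMP antibody lists and both FLAG lists, and in no MSL2 list. The site at 88.4 kb (X, 8364494 to 8364646) was called for MSL2 in the mixtures with CLAMP mutant and with CLAMP, with starts 2 bp apart, and in no CLAMP or FLAG list. FLAG CLAMP alone gave a site at 8.45 kb (X, 8284575 to 8284725).

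shakB, the innexin of electrical synapses in the giant fibre escape circuit, is the longest of the 9 genes (X, 20761071 to 20927050) and had 9 sites in 166 kb. The site at 155.6 kb (X, 20916585 to 20916838) was called in 5 lists: CLAMP with MSL2, CLAMP mutant, CLAMP and both FLAG lists. Like that of nAChRalpha3, this site was in no MSL2 list. Both FLAG lists alone called sites at 40.9 kb (X, 20801843 to 20802005) and 88.9 kb (X, 20849930 to 20850086). MSL2 was called at 162.7 kb (X, 20923714 to 20923909) in the mixtures with CLAMP mutant and with CLAMP. Single-list sites of CLAMP with MSL2 lay at 33.5, 43.5 and 156.7 kb, one of CLAMP alone at 7.20 kb and one of CLAMP mutant with MSL2 at 50.6 kb.

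**Figure D2:**
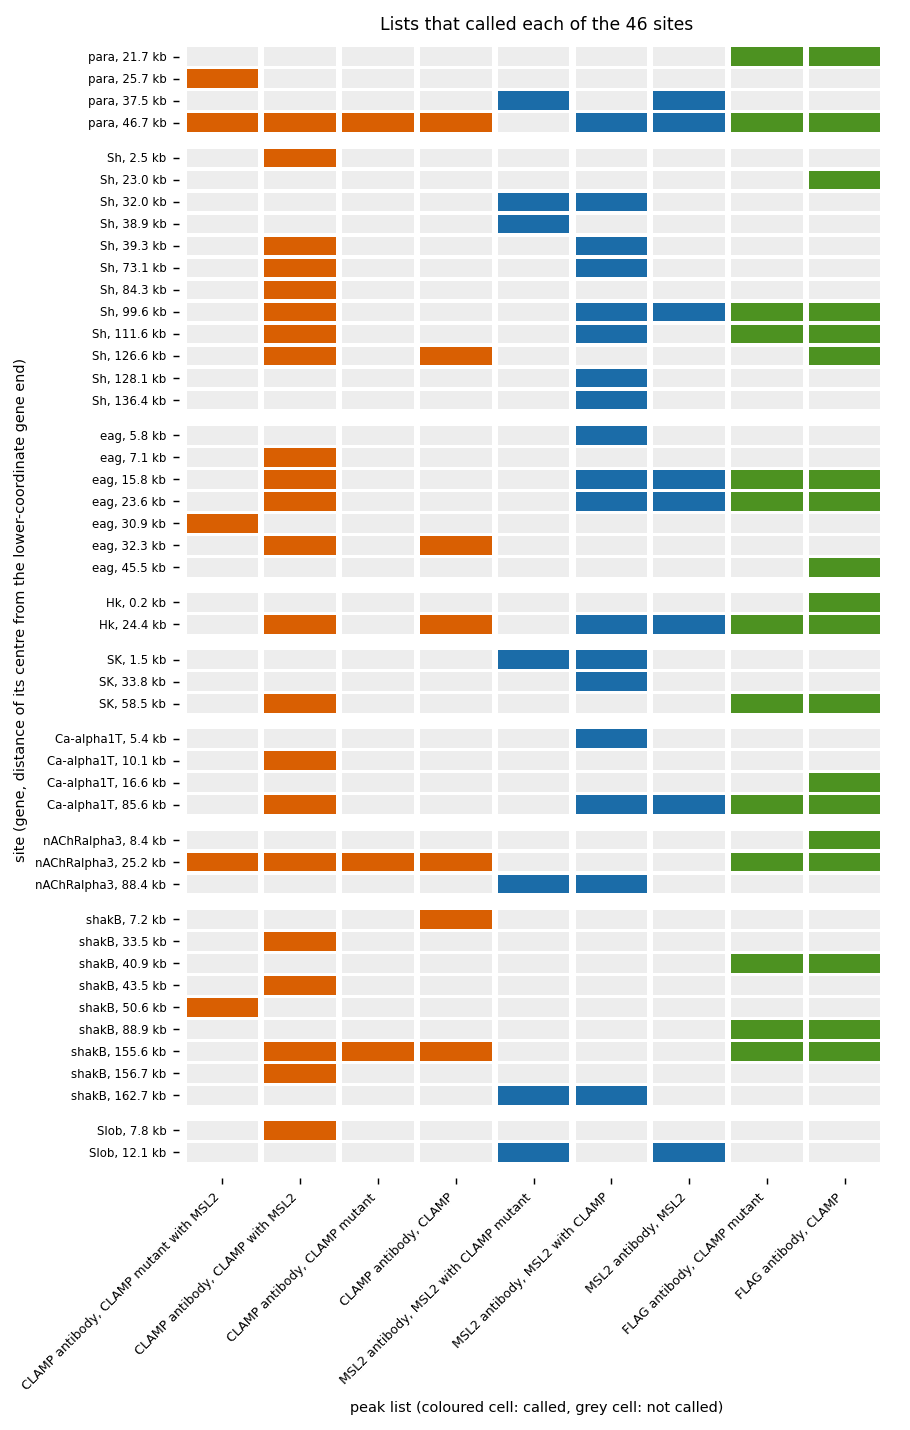
Lists that called each of the 46 sites. Rows are sites, by gene and kb from the lower-coordinate gene end, columns are the 9 peak lists, a coloured cell is a call (orange CLAMP, blue MSL2, green FLAG antibody) and grey is no call. No row has both a call for MSL2 with CLAMP mutant and a call of the CLAMP or FLAG antibody. Of all sites of that list in the series, 13.3% have such a call. Its absence among so few sites does not set these genes apart.

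Each list called the following numbers of the 46 sites, beside its share of all 1098 sites. Intervals are exact (Clopper-Pearson, 95%) and cover counting error only, and sites in 1 gene are not independent. With the CLAMP antibody, CLAMP mutant with MSL2 called 5 (10.9%, 3.62 to 23.6) against 6.38% of all sites. CLAMP with MSL2 called 22 (47.8%, 32.9 to 63.1) against 39.1%, and was the only list with a site in each of the 9 genes. CLAMP mutant alone called 3 (6.52%, 1.37 to 17.9) against 3.46%, and CLAMP alone 7 (15.2%, 6.34 to 28.9) against 6.74%. With the MSL2 antibody, MSL2 with CLAMP mutant called 7 (15.2%, 6.34 to 28.9) against 20.6%, MSL2 with CLAMP 18 (39.1%, 25.1 to 54.6) against 42.4%, and MSL2 alone 8 (17.4%, 7.82 to 31.4) against 12% (132 of 1098). The FLAG antibody called 13 with CLAMP mutant (28.3%, 16.0 to 43.5) against 20.4%, and 19 with CLAMP (41.3%, 27.0 to 56.8) against 32.2%. Taking only the first 50% of the lines of each list, in an order the headers do not explain, left between 1 and 11 of the sites per list. In all 9 lists the share of all sites lay inside the interval of the channel gene share. Over X alone, where 44 of the 46 sites lie, the channel gene share also had the same order relative to all X sites in 8 of the 9 lists. The exception was MSL2 with CLAMP, with 40.9% of the 44 sites against 40.4% of all 502 sites on X.

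**Figure D3:**
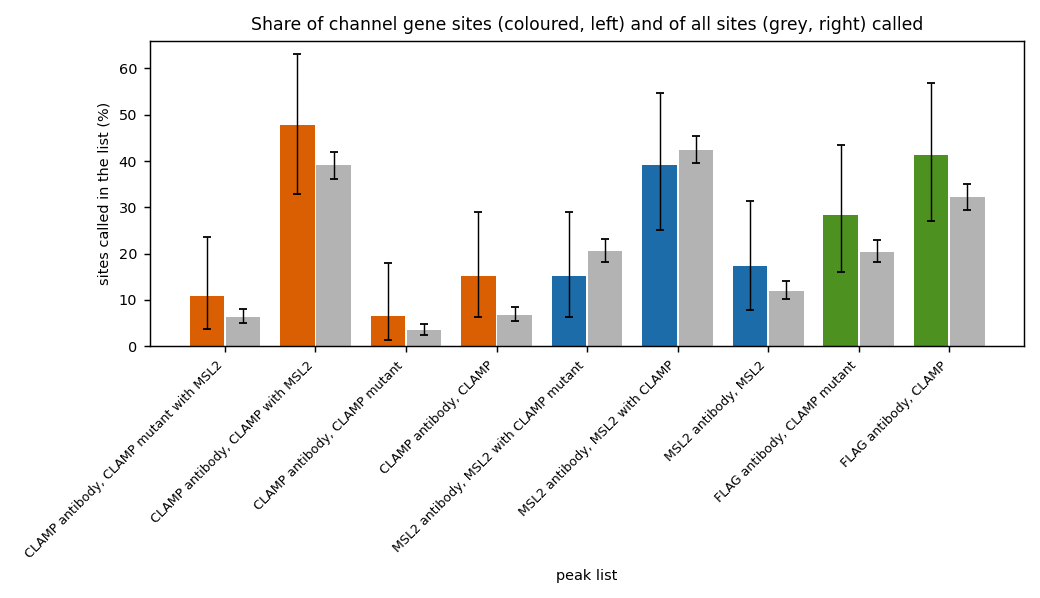
Share of sites called in each list. The vertical axis is the percentage of sites called, coloured bars on the left are the 46 channel gene sites and grey bars on the right are all 1098 sites, and error bars are exact 95% intervals that cover counting error only. The grey value lies within the error bar of its coloured neighbour in all 9 lists.

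By antibody, 12 of the 46 sites (26.1%, 14.3 to 41.1) were called by the MSL2 antibody alone, against 34.8% of all sites. The CLAMP or FLAG antibody alone called 25 (54.3%, 39.0 to 69.1), against 52.0%. Sites of both kinds numbered 9 (19.6%, 9.36 to 33.9), against 13.2%. Single-list sites made up 23 of the 46, against 55.1% of all sites. In at least 5 lists were 8 of the 46, against 50 of all 1098 (4.55%). These 8 lay in 7 genes: para, Sh, eag (2 sites), Hk, Ca-alpha1T, nAChRalpha3 and shakB. SK and Slob had none.

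The 8 sites in at least 5 lists, picked for that number, either held MSL2 peaks or lacked them. The sites of para (46.7 kb), Sh (99.6 kb), eag (15.8 and 23.6 kb), Hk (24.4 kb) and Ca-alpha1T (85.6 kb) were all called for CLAMP with MSL2, for MSL2 with CLAMP, for MSL2 alone and in both FLAG lists. None of these 6 was called for MSL2 with CLAMP mutant. The sites of nAChRalpha3 (25.2 kb) and shakB (155.6 kb) were called in both FLAG lists and in 4 and 3 CLAMP antibody lists and had no MSL2 peak. Of the 42 other sites of the series in at least 5 lists, 26 were in the same 5 lists as the first 6, of which 4 were also called for MSL2 with CLAMP mutant, and 6 were in both FLAG lists without an MSL2 peak. Peak starts at the 8 sites spread over 19 to 211 bp, with a median of 88.0 bp. Those 42 others had a median of 59.0 bp and a range of 0 to 214 bp.

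**Figure D4:**
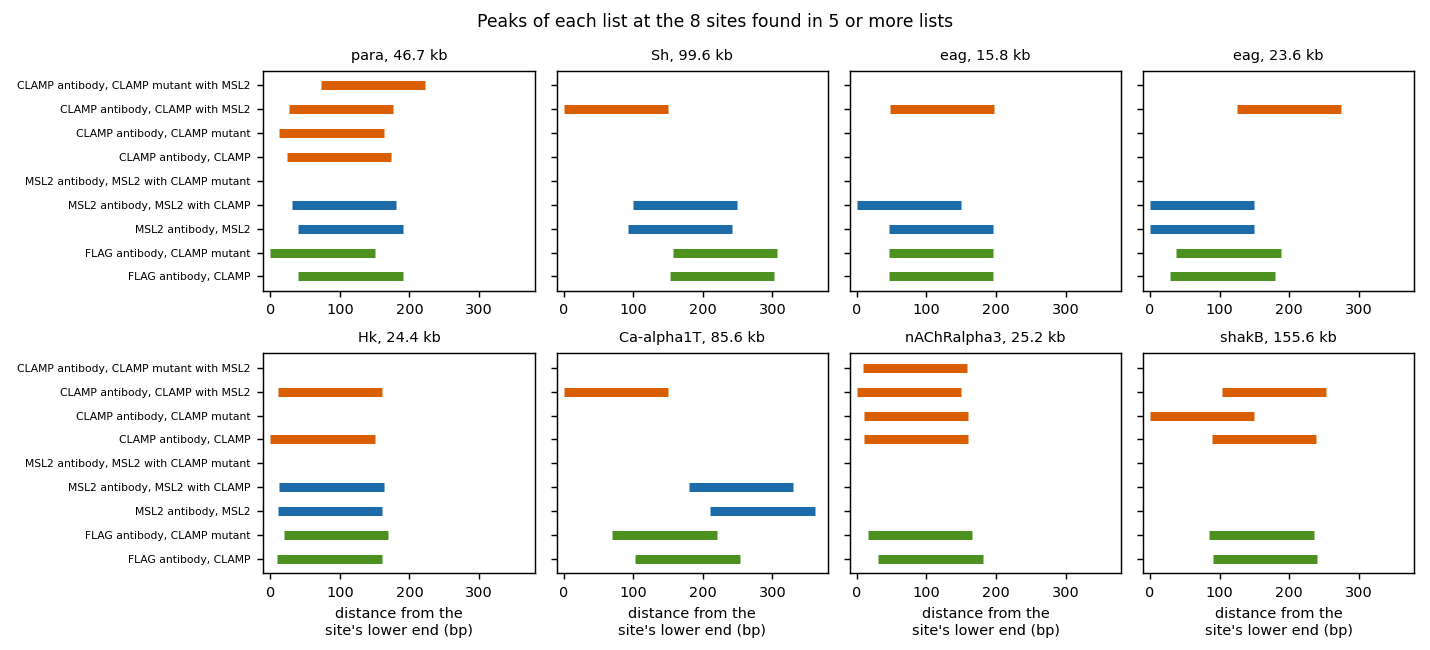
Peaks of each list at the 8 sites found in at least 5 lists. The horizontal axis is the distance in bp from the lower end of the site, rows are the 9 lists, and bars are peaks coloured by antibody (orange CLAMP, blue MSL2, green FLAG). The peaks of Hk start within 19 bp of each other, whereas those of Ca-alpha1T are staggered over 211 bp.

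The first comparison asked where MSL2 was found when CLAMP was present. The MSL2 antibody called 18 sites with CLAMP and 8 with MSL2 alone. Their whole lists also differed in this direction, with 466 and 132 peaks and 1.60% and 0.183% of their tags in peaks. Of the 8 sites of MSL2 alone, 6 were also called with CLAMP (75.0%, 34.9 to 96.8; over all sites 93.2%), and these are the 6 sites of para, Sh, eag, Hk and Ca-alpha1T named above. The 2 not called with CLAMP were the 37.5 kb site of para and the 12.1 kb site of Slob. Of the 18 sites with CLAMP, 6 were also sites of MSL2 alone (33.3%, 13.3 to 59.0; over all sites 26.4%). The 12 others were 6 in Sh, 2 in SK and 1 each in eag, Ca-alpha1T, nAChRalpha3 and shakB. SK, nAChRalpha3 and shakB had no MSL2 site without a CLAMP protein in the mixture. They held only 2, 1 and 1 sites of MSL2 with CLAMP. Over all sites, 26.4% of such sites were also called with MSL2 alone. The absence among so few sites therefore does not set these genes apart.

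With the CLAMP mutant in place of CLAMP, 2 of the 8 sites of MSL2 alone were called again. The MSL2 antibody called 7 sites with CLAMP mutant and 8 with MSL2 alone, and only the para site at 37.5 kb and the Slob site at 12.1 kb were in both. These are 2 of the 8 (25.0%, 3.19 to 65.1; over all sites 59.8%) and 2 of the 7 (28.6%, 3.67 to 71.0; over all sites 35.0%). Both intervals hold the share over all sites. With a reciprocal overlap of 50% in place of 1 bp, 1 of these 2 was shared. The 6 sites of MSL2 alone that were not called with CLAMP mutant are the same 6 that were called with CLAMP. All 6 were FLAG sites of CLAMP mutant and of CLAMP, and the para and Slob sites were in neither FLAG list. Over all sites of MSL2 alone, 93.2% were called with CLAMP and 59.8% with CLAMP mutant, so part of them were called with both. How all sites of MSL2 alone split by mixture and FLAG list together was not counted, and 8 sites are few. Seen from the FLAG side, MSL2 alone called 6 of the 19 FLAG CLAMP sites (31.6%, 12.6 to 56.6), against 11.3% over all sites. These are 6 of its own 8 (75.0%, 34.9 to 96.8), against 30.3% over all sites. The shares over all sites lie below these intervals, which cover counting error only and take sites in 1 gene as independent. The genes were chosen for holding sites in these same lists, so this difference supports nothing further. No share over X alone was taken for this pair.

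Set directly against each other, MSL2 with CLAMP mutant called 7 sites and MSL2 with CLAMP called 18, of which 4 were in both. The shared sites lay in Sh (32.0 kb), SK (1.47 kb), nAChRalpha3 (88.4 kb) and shakB (162.7 kb), and none of these 4 was called with MSL2 alone. They are 57.1% of the 7 (18.4 to 90.1; over all sites 75.2%) and 22.2% of the 18 (6.41 to 47.6; over all sites 36.5%). Sites only with CLAMP mutant were those of para (37.5 kb), Sh (38.9 kb) and Slob (12.1 kb). None of the 7 sites with CLAMP mutant had a CLAMP or FLAG antibody peak in any list (upper bound 41.0%), where 13.3% of all sites of that list had one. With CLAMP, 9 of 18 sites had such a peak (interval 26.0 to 74.0), against 30.0% over all sites. With MSL2 alone it was 6 of 8 (interval 34.9 to 96.8), against 54.5%. Both intervals hold the share over all sites.

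The next comparison asked where CLAMP was found when MSL2 was present. The CLAMP antibody called 22 sites for CLAMP with MSL2 and 7 for CLAMP alone. The whole lists differed in the same direction, with 429 and 74 peaks, and held 0.627% and 0.0658% of their tags in peaks. Of the 7, 6 were also called with MSL2 (85.7%, 42.1 to 99.6; over all sites 55.4%): para (46.7 kb), Sh (126.6 kb), eag (32.3 kb), Hk (24.4 kb), nAChRalpha3 (25.2 kb) and shakB (155.6 kb). The exception was shakB at 7.20 kb. These 6 are 27.3% of the 22 (10.7 to 50.2), against 9.56% over all sites, which lies below the interval. That interval covers counting error only. It is 1 of many set side by side here, over 11 pairs of lists, in genes chosen for holding sites. The difference therefore supports nothing further. Among the 16 sites called only with MSL2, 6 were FLAG CLAMP sites, against 31.4% of such sites in the series. Each of these 6 was also a FLAG site of CLAMP mutant, as were 86 of the 122 in the series. The 6 lay in Sh (99.6 and 111.6 kb), eag (15.8 and 23.6 kb), SK (58.5 kb) and Ca-alpha1T (85.6 kb). The FLAG lists were made without MSL2. The CLAMP antibody peak overlapped a FLAG CLAMP peak directly at 5 of these 6 sites, the exception being Sh at 99.6 kb. The other 10 were in no FLAG list and included the second Slob site.

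The CLAMP antibody lists of CLAMP mutant with MSL2 (70 peaks) and of CLAMP mutant alone (38 peaks) were short. The list of CLAMP alone, with 74 peaks, was short as well. This antibody called 5 of the 46 sites for CLAMP mutant with MSL2 and 3 for CLAMP mutant alone. The sites in both were those of para (46.7 kb) and nAChRalpha3 (25.2 kb), 2 of the 3 (66.7%, 9.43 to 99.2; over all sites 15.8%) and 2 of the 5 (40.0%, 5.27 to 85.3; over all sites 8.57%). The shakB site at 155.6 kb was called without MSL2 only. The 3 sites called with MSL2 only, in para, eag and shakB, were in no other list, as were 70.0% of all sites of that list, which had 0.0377% of its tags in peaks. Against CLAMP with MSL2, with 22 sites, the mutant with MSL2 shared the same para and nAChRalpha3 sites, 2 of its 5 (40.0%; over all sites 25.7%) and 2 of the 22 (9.09%, 1.12 to 29.2; over all sites 4.20%). All 3 sites of CLAMP mutant alone were among the 7 of CLAMP alone (interval 29.2 to 100; over all sites 52.6%), and made up 42.9% of those (9.90 to 81.6; over all sites 27.0%).

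In the FLAG precipitation the sites of the CLAMP mutant were a subset of those of CLAMP. The mutant had 13 sites and CLAMP had 19, and all 13 were shared (75.3 to 100; over all sites 97.8%), which is 68.4% of the 19 (43.4 to 87.4; over all sites 61.9%). The 6 sites of FLAG CLAMP alone lay in Sh (23.0 and 126.6 kb), eag (45.5 kb), Hk (0.195 kb), Ca-alpha1T (16.6 kb) and nAChRalpha3 (8.45 kb). Except for Sh at 126.6 kb, these were in no other list. In the series, FLAG CLAMP had 354 sites, of which 219 were shared with FLAG CLAMP mutant and 85 were in no other list. The FLAG lists held a site in each gene but Slob.

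Within 1 mixture, the antibodies shared sites with CLAMP and none with CLAMP mutant. With MSL2 and CLAMP together, the CLAMP antibody called 22 sites and the MSL2 antibody 18, with 9 in both: 4 in Sh, 2 in eag and 1 each in para, Hk and Ca-alpha1T. They are 40.9% of the 22 (20.7 to 63.6), against 26.1% over all sites, which lies inside the interval. They are also 9 of the 18 (interval 26.0 to 74.0), against 24.0% over all sites, which lies below it. These intervals cover counting error only, and the genes were chosen for holding sites in these same lists, so neither difference supports anything further. At 8 of the 9 the peaks overlapped directly, and the exception was the staggered site of Ca-alpha1T. With MSL2 and CLAMP mutant together, the CLAMP antibody called 5 sites and the MSL2 antibody 7, with 0 in both (upper bounds 52.2% and 41.0%). Over all sites the shares there were 4.29% and 1.33%, so a count of 0 among so few sites does not set these genes apart.

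The 9 genes are long, and their site counts were set beside those of other long genes. Together the 8 X genes held 44 sites in 712 kb, or 6.18 per 100 kb, against 2.38 per 100 kb over the 17600 kb of gene bodies on X. Among the 136 X genes at least as long as Hk, 63.2% held a site, with a median of 1 site per gene, and the 8 had a median of 4. Sh had the most sites of these 136 genes, with 12, followed by mamo (11), mgl (10) and shakB (9). Holding sites is what the genes were chosen for, so these counts support nothing further.

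**Figure D5:**
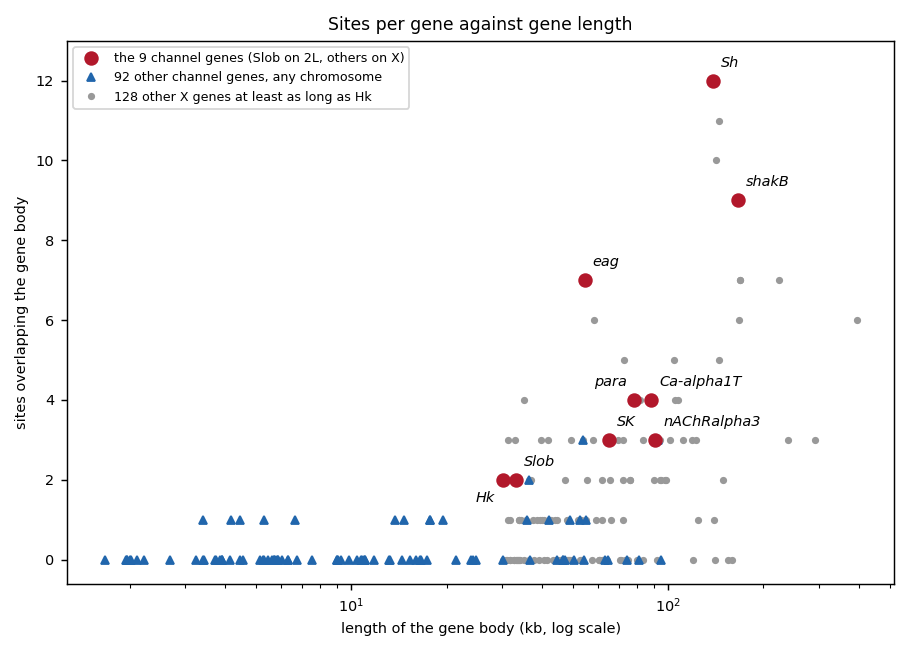
Sites per gene against gene length. The horizontal axis is the gene body length in kb on a log scale, the vertical axis is the number of sites overlapping it, red circles are the 9 channel genes, blue triangles 92 other channel genes on any chromosome and grey dots the 128 other X genes at least as long as Hk. Sh has 12 sites, and most of the short channel genes lie at 0.

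To see the rest of the channel families, a wider list of channel genes and partners was used, all 101 of which were found in the gene table. Of the 92 genes besides the 9, 18 held a site, or 23 sites in all, where 3.62% of all genes on the chromosome arms held one. Counting only sites in at least 2 lists, 9 of the 92 held one. Gene length differs widely between these sets: of the 20 other channel genes at least as long as Hk, both of those on X and 6 of the 18 on autosomes held a site. Among all genes of that length the shares were 63.2% on X and 27.3% on autosomes. On X, 4 of 13 other channel genes held a site: cac, the presynaptic calcium channel gene (3 sites), Cngl, iav and ogre.

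Sites in at least 3 lists were found in 3 of these genes. Teh1, a homologue of the sodium channel auxiliary subunit tipE, held a site called for CLAMP with MSL2, CLAMP alone and in both FLAG lists (3R, 9866149 to 9866342). The site of iav, a channel gene of the TRP family needed for hearing, was called for CLAMP with MSL2 and in all 3 MSL2 antibody lists (X, 6816452 to 6816624). nAChRbeta1, a nicotinic receptor subunit gene, held a site of CLAMP with MSL2, CLAMP alone and FLAG CLAMP (3L, 4430394 to 4430548). Of the 23 sites in these genes, 14 were called in 1 list. None of the 13 glutamate receptor genes, the 8 inward rectifier and 2-pore potassium channel genes or the 6 chloride channel genes of the list held a site. Only GluRIB among them, at 36.5 kb, is at least as long as Hk, and 3.62% of all genes held a site. Their absence therefore does not set these families apart. Within the nicotinic receptor family, 2 of the 9 genes besides nAChRalpha3 held a site, and within the innexins 1 of the 7 besides shakB.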

How the data were processed

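The 9 deposited peak lists of chromatin reconstituted from BG-3 DNA were used, 1 per group with an added protein. The submitters' processing notes name Bowtie2 2.2.9, SAMtools 1.9, HOMER 4.9 and dm6. Per the file headers, the authors called peaks with HOMER findPeaks on merged tags, at 10-fold over the negative control and 4-fold over the surrounding 10000 bp. The deposited score is 1 for every peak and was not used. Members and gene lists were chosen with earlier results of these data known. Starts were made 1-based and peaks overlapping by at least 1 bp were joined (Python 3.11.15, tested on simulated lists). Gene bodies came from a RefSeq table of the same assembly, which gives no strand. Intervals are exact binomial (scipy 1.17.1) and figures used matplotlib 3.10.9. Every site of the 9 genes is named; of the wider channel list, genes with a site in at least 3 lists are named, and cac, Cngl and ogre were named after their values were seen. GA-repeat letters, promoters and sequences of the sites were planned and not analysed here.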

Additional observations from a re-analysis of the deposited data

How the results depend on the processing

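Of 66 alternative values for 23 counts, 54 stayed within 1.5 times the count reported. Joining peaks within 500 bp gave 45 sites, since the close pair in Sh became 1. Assigning by site centre or widening genes by 2 kb gave 46. Neither could change the count, since every site lay wholly inside its gene and the nearest outside site was 3996 bp away. The same holds for the counts per list under these alternatives, which are among the 54. Taking only the first 50% of the lines of every list, whose ranking is not stated, kept 2 of 5 sites for CLAMP mutant with MSL2, 11 of 22 for CLAMP with MSL2, 1 of 3 for CLAMP mutant and 4 of 7 for CLAMP. It kept 1 of 7 for MSL2 with CLAMP mutant, 2 of 18 for MSL2 with CLAMP, 1 of 8 for MSL2 alone, 4 of 13 for FLAG CLAMP mutant and 6 of 19 for FLAG CLAMP; the cause was not tested. Reciprocal 50% overlap left 1 site, not 2, shared by MSL2 with CLAMP mutant and MSL2 alone, because the para peaks start 110 bp apart. Of the other channel genes, 9 rather than 18 held a site called in at least 2 lists. Of 2 alternatives chosen after seeing the data, keeping sites in at least 2 lists left 23 of 46, and leaving out the 3 lists with under 0.1% of tags in peaks left 42. No paired analysis was possible because the libraries of each group were merged before peaks were called, and for the same reason no library could be left out.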
